A study of Mus musculus with 8 samples.

Results

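The respiratory chain set comprised 89 nuclear genes, of 20796 genes named on the array, that encode subunits or assembly factors of the 5 complexes of oxidative phosphorylation. A gene belonged to the set when its symbol began with Nduf, Sdh followed by a, b, c or d, Uqcr, Cox followed by 4 to 8, or Atp5. Cox8b and Cox7a1, which are typical of brown fat and muscle, were left out by the same rule, and each gene was represented by its brightest probe set. The choice used gene names and mean brightness over all arrays and no comparison between groups. Genes encoded by mitochondrial DNA were not analysed here.

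Abdominal white adipose tissue of adult mice was profiled on 8 Affymetrix mouse genome PM arrays, each hybridized with total RNA pooled from 5 mice. Wild type mice were B10.D2 (Rsl/Rsl) and mutant mice were B10.D2.PL (rsl/rsl), a strain that lacks functional Regulator of sex-limitation (Rsl) genes, which encode zinc finger repressors first known from liver. The 4 groups were rsl males, rsl females, and wild type mice of each sex, with 2 pools in each, and all mice ate standard chow. The comparisons ask whether the expression of adipose genes depends on Rsl in either sex and whether the sexes differ within a strain. The mutant mice carry the alleles in every tissue and as a separate strain, so the loss of the genes and other differences between the strains cannot be told apart. The labels number the pools as biological replicates, and whether a mouse gave RNA to both pools of its group is not stated, so p-values measure the spread between these pools only. One label field names liver as the RNA source, and the tissue field and the study design name white adipose tissue.

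The inner mitochondrial membrane holds a chain of protein complexes that passes electrons from NADH and succinate to oxygen and pumps protons as it does so. Complexes I and II feed electrons into the chain, complex III passes them to cytochrome c, complex IV reduces oxygen, and ATP synthase uses the proton gradient to make ATP. White adipocytes hold few mitochondria compared with brown adipocytes, and they use the chain in fatty acid oxidation and to supply energy for lipid synthesis. Many nuclear genes of the chain have binding motifs for nuclear respiratory factor 1 (NRF1) and for factors of the ETS family such as GABP at their promoters.

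The promoters of 4 members are shown because these genes differed in opposite directions between males and females of the rsl strain. Sdha and Sdhd, the flavoprotein and a membrane anchor of complex II, were lower in males, and Cox7a2l, a factor of respiratory supercomplexes, was higher. Atp5g1, a subunit c gene of ATP synthase, had the next highest difference without passing the test. The genes and motifs were chosen after their values were seen. Each line gives the 250 bases before the RefSeq transcription start of the assembly GRCm38.p6, 5′ to 3′ on the minus strand of the chromosome, which is the gene's strand. Capitals mark matches to the core of the NRF1 motif, GCGCANG, or to the ETS motif CCGGAAG on either strand, and these 2 motifs did not overlap in the lines shown. The positions are chr13:74350241-74350490 for Sdha, chr9:50603850-50604099 for Sdhd, chr17:83514334-83514583 for Cox7a2l and chr11:96075632-96075881 for Atp5g1.
Sdha: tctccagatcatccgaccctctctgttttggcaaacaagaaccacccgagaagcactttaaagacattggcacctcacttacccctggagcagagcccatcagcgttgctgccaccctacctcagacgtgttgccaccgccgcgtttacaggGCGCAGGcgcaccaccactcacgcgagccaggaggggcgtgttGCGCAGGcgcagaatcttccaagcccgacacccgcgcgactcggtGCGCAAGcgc
Sdhd: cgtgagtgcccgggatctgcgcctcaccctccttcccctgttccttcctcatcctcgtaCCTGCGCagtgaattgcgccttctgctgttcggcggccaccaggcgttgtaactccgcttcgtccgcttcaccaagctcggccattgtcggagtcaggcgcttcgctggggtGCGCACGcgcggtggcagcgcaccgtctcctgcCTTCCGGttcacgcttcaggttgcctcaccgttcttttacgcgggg
Cox7a2l: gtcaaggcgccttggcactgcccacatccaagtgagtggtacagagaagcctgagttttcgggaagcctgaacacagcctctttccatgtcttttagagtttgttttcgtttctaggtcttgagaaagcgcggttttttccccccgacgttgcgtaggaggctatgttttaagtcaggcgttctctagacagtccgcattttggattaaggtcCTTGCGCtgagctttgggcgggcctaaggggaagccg
Atp5g1: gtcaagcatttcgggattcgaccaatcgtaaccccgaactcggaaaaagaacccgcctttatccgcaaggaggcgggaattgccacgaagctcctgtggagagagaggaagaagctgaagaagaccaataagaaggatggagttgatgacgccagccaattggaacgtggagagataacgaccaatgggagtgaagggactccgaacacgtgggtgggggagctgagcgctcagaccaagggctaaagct
The Sdha stretch held 3 NRF1 matches, which began 98, 55 and 10 bases before the start. The Sdhd stretch held 2 NRF1 matches, which began 191 and 79 bases before the start, and 1 ETS match that began 46 bases before it. The Cox7a2l stretch held 1 NRF1 match that began 37 bases before the start, and the Atp5g1 stretch held neither sequence.

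RefSeq windows of 300 bases, from 250 before to 50 after the start, were given for 73 of the 89 members. The NRF1 sequence occurred in 33 of these windows (45.2%), against 21.5% of the windows of 17492 protein-coding genes. The ETS sequence occurred in 17 (23.3%) against 11.9%, the YY1 motif core AAGATGG in 11 (15.1%) against 6.37%, and AAGGTCA, the core bound by oestrogen-related receptors (ERR), in 7 (9.59%) against 4.08%. All were searched on both strands, and 51 members had at least 1 of the 4 sequences. Among the members that were lower in rsl males than in rsl females by the test described further on, the NRF1 sequence occurred in 11 of 25 windows (44.0%), and among the uncalled members in 21 of 47 (44.7%). These matches describe letters in a window and not bound sites.

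The arrays differed in markers of other tissues, and these values bear on every comparison that follows. The mean level of 19 adipocyte markers, all above background on every array, was 11.64 and 11.77 (log2 signal) in wild type males, 11.81 and 11.77 in wild type females, 11.09 and 11.66 in rsl males, and 11.81 and 11.81 in rsl females. Pool 1 of the rsl males was thus the lowest in adipocyte markers. The mean level of 11 epididymis markers was 6.72 and 5.14 in wild type males, 3.80 and 3.81 in wild type females, 12.04 and 11.46 in rsl males, and 4.002 and 3.92 in rsl females. All 11 were above background in both rsl male pools, 8 or 9 were so in each pool of wild type males, and 6 or 7 in each female pool. The mean of 14 skeletal muscle markers was between 4.41 and 4.56 in each male pool, while wild type females had 7.50 and 7.23 and rsl females 7.07 and 5.52. The mean of 10 hepatocyte markers was 5.98 and 6.91 in wild type males and from 4.89 to 5.30 in the other pools, with 7 to 10 of the 10 above background, and 3 of the 10 were lower in rsl than in wild type males. The mean of 12 macrophage markers was within each sex lower in the rsl strain, at 8.14 and 8.47 for its male pools and 8.56 and 8.73 for its female pools, than in the wild type, where male pools had 8.67 and 8.995 and both female pools 8.98. All 12 differences between the strains were below 0 in males and in females, with medians of -0.48 and -0.32 and no overlap for 10 of the 12 in each sex; 1 passed in males and 0 in females (limma, with 6 in females at an unadjusted p below 0.05). The part of these cells in the members' values was not tested. The difference between 3' and 5' probe sets of Gapdh was 0.79 and 1.03 in the rsl males and from 0.50 to 0.72 on the other arrays. That of actin was 1.16 and 1.199 in the rsl males and from 0.88 to 1.09 elsewhere. Both differences, which grow as RNA is less intact, were thus highest in the rsl male pools. In such bulk samples, fewer cells of a type and less RNA per cell cannot be told apart.

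Most chain genes gave a bright signal. The median level of the 89 members was 10.82 (log2 signal, where 1 unit is a doubling), and 65 members averaged above 10, while the median of all probe sets was between 4.54 and 4.58 on each array. A total of 87 members lay above the background of all 8 arrays, which was between 3.73 and 4.01. The exceptions were Cox7b2, a testis form of a complex IV subunit, and Ndufb4, an accessory subunit of complex I, whose brightest probe set had levels from 3.70 to 4.21. Levels of different probe sets are not compared as amounts of RNA, since each probe set has its own response.

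The means of the 89 members by pool were 10.06 and 10.04 in wild type males, 10.12 and 10.16 in wild type females, 9.93 and 9.998 in rsl males, and 10.21 and 10.23 in rsl females. All 4 female pools were above all 4 male pools, and the rsl pools formed both the low and the high end. The same order of group means, rsl males below wild type males, then wild type females, then rsl females, was seen in 54 of the 89 members (60.7%) and in 8.40% of all 45037 probe sets. The lowest array was pool 1 of the rsl males for 52 members (58.4%, against 24.3% of probe sets), and the highest array was an rsl female pool for 69 (77.5%, against 29.2%). The median absolute gap between the pools of a group was 0.07 in wild type males, 0.06 in wild type females, 0.11 in rsl males and 0.05 in rsl females. In rsl males, pool 2 was the higher one for 63 of the 89 members.

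**Figure D1:**
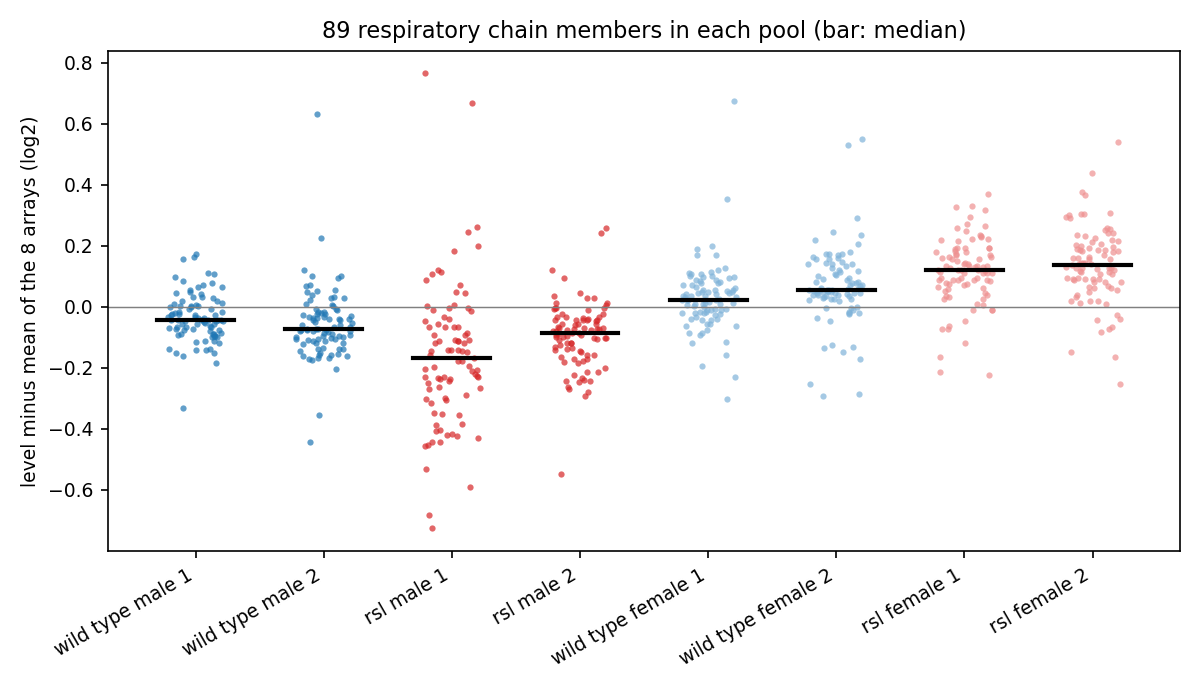
Each point is the level of 1 of the 89 members in 1 pool, as the log2 signal minus that member's mean over the 8 arrays, and each bar is the median of the members in the pool. The medians of the 4 female pools lie above 0 and those of the 4 male pools below it, and the points of rsl male pool 1 spread widest.

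Most calls among the chain genes came from the comparison of the sexes within the rsl strain. Of the 89 members, 31 were lower in rsl males than in rsl females and 1 was higher (limma, Benjamini-Hochberg adjusted p below 0.05 over 45037 probe sets). Over all probe sets, 12.3% were called in this comparison, 7.61% lower and 4.73% higher. The median difference of the members was -0.26 (log2), against -0.03 over all probe sets, and 81 of the 89 differences were below 0. Both male pools lay below both female pools for 70 members (32.2% of all probe sets) and above them for 5 (23% of all probe sets). The 31 calls ran from -0.89 to -0.31, which corresponds to male levels of 0.538 to 0.808 of the female level.

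Complex I, the NADH dehydrogenase, had 3 of 7 core subunits, 9 of 29 accessory subunits and 4 of 6 assembly factors lower in rsl males, and none higher. The core subunits Ndufs7, Ndufs8 and Ndufv1 and the accessory subunits Ndufa5, Ndufb5, Ndufb6 and Ndufc1 were called lower only by another probe set. Ndufs1, the largest iron-sulfur subunit of its peripheral arm, had levels of 8.75 and 9.20 in rsl males, 9.76 and 9.98 in rsl females, 9.32 and 9.32 in wild type males, and 9.56 and 9.60 in wild type females. The rsl males were below, and the rsl females above, every wild type pool. Ndufs1 was 0.89 ± 0.15 (SE) lower on the log2 scale in rsl males than in rsl females (limma adjusted p = 0.0133). Ndufs3, a core subunit of the same arm, was also called, with a difference of -0.34.

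Ndufaf1, which chaperones the assembly of the membrane arm, had levels of 7.30 and 7.78 in rsl males against 8.30 and 8.39 in rsl females, a difference of -0.80 ± 0.16 (limma adjusted p = 0.0229). Ndufaf5, which modifies the core subunit Ndufs7, had 5.59 and 5.83 against 6.45 and 6.56, a difference of -0.79 ± 0.11 (limma adjusted p = 0.00800). Neither gene overlapped between the groups, and the other assembly factors called were Ndufaf4 (-0.55) and Ndufaf2 (-0.32). Among accessory subunits, Ndufa9, which lies close to the quinone site, differed by -0.58 ± 0.10 (limma adjusted p = 0.0171). Ndufs5 differed by -0.57 ± 0.09 (limma adjusted p = 0.0117), and Ndufab1, the mitochondrial acyl carrier protein, by -0.52. Ndufa10, Ndufs4, Ndufa8, Ndufb2, Ndufb9 and Ndufb10 were also called, with differences from -0.46 to -0.34.

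Complex II, succinate dehydrogenase, had 3 of its 4 subunits called lower in rsl males. Sdhb, the iron-sulfur subunit, had levels of 10.40 and 10.71 in rsl males, 11.12 and 11.16 in rsl females, 10.71 and 10.82 in wild type males, and 10.95 and 11.00 in wild type females. Its sexes did not overlap in either strain, and the difference in the rsl strain was -0.58 ± 0.11 (limma adjusted p = 0.0194). Sdhd had 9.62 and 9.79 in rsl males against 10.22 and 10.28 in rsl females, a difference of -0.54. Sdha had 10.91 and 11.19 against 11.55 and 11.60, a difference of -0.52. The promoter stretches of Sdhd and Sdha are shown above. Sdhc, the other membrane anchor, did not pass the test, with a difference of -0.44. Of the 2 assembly factors, Sdhaf2, which aids the attachment of flavin to Sdha, was called at -0.37.

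Complex III had 4 of 8 members lower. Uqcrfs1, the Rieske iron-sulfur protein, had levels of 9.65 and 9.97 in rsl males, 10.56 and 10.62 in rsl females, 10.15 and 10.22 in wild type males, and 10.34 and 10.41 in wild type females. As with Ndufs1, the wild type pools lay between the rsl males and the rsl females, and the difference was -0.78 ± 0.11 (limma adjusted p = 0.00893). Uqcr10, a small subunit, differed by -0.59 ± 0.09 (limma adjusted p = 0.0115). The other calls were Uqcrq (-0.44) and the core protein Uqcrc2 (-0.31). Uqcrb was called lower only by another probe set.

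ATP synthase had 3 of 5 members of its catalytic F1 part and 3 of 9 of its membrane part and stalk lower. Atp5s and Atp5sl, grouped with it here by their symbols only, were not called. Atp5d, Atp5f1 and Atp5j2 were called lower only by another probe set. The catalytic beta subunit Atp5b had levels of 11.16 and 11.41 in rsl males and 11.74 and 11.82 in rsl females, a difference of -0.49 ± 0.10 (limma adjusted p = 0.0255). The alpha subunit Atp5a1 differed by -0.36 and the gamma subunit Atp5c1, which turns within the catalytic head, by -0.36. Atp5o, which joins the head to the stator, differed by -0.48, the stalk subunit Atp5j by -0.33 and the membrane subunit Atp5k by -0.32.

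Complex IV, cytochrome c oxidase, had 1 of its 17 members lower and 1 higher. Cox7c, a small structural subunit, had levels of 10.54 and 10.50 in rsl males and 10.82 and 10.84 in rsl females (-0.31 ± 0.07, limma adjusted p = 0.0287), but its second probe set differed by 0.12 in the other direction. Cox7a2l, which links complexes III and IV in supercomplexes, had levels of 10.24 and 9.83 in rsl males, 9.36 and 9.41 in rsl females, 9.64 and 9.41 in wild type males, and 9.41 and 9.28 in wild type females. Both rsl male pools were above every other pool, and Cox7a2l was 0.65 ± 0.15 higher in rsl males than in rsl females (limma adjusted p = 0.0330), as were its other 2 probe sets at 0.66 and 0.65. The 2 brightest members, Cox6a1 and Cox5b, were not called by their brightest probe sets. The Cox6a1 difference was -0.19 ± 0.07 (limma adjusted p = 0.161). Cox5a, Cox5b and Cox6b1 were called lower in rsl males only by another probe set.

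**Figure D2:**
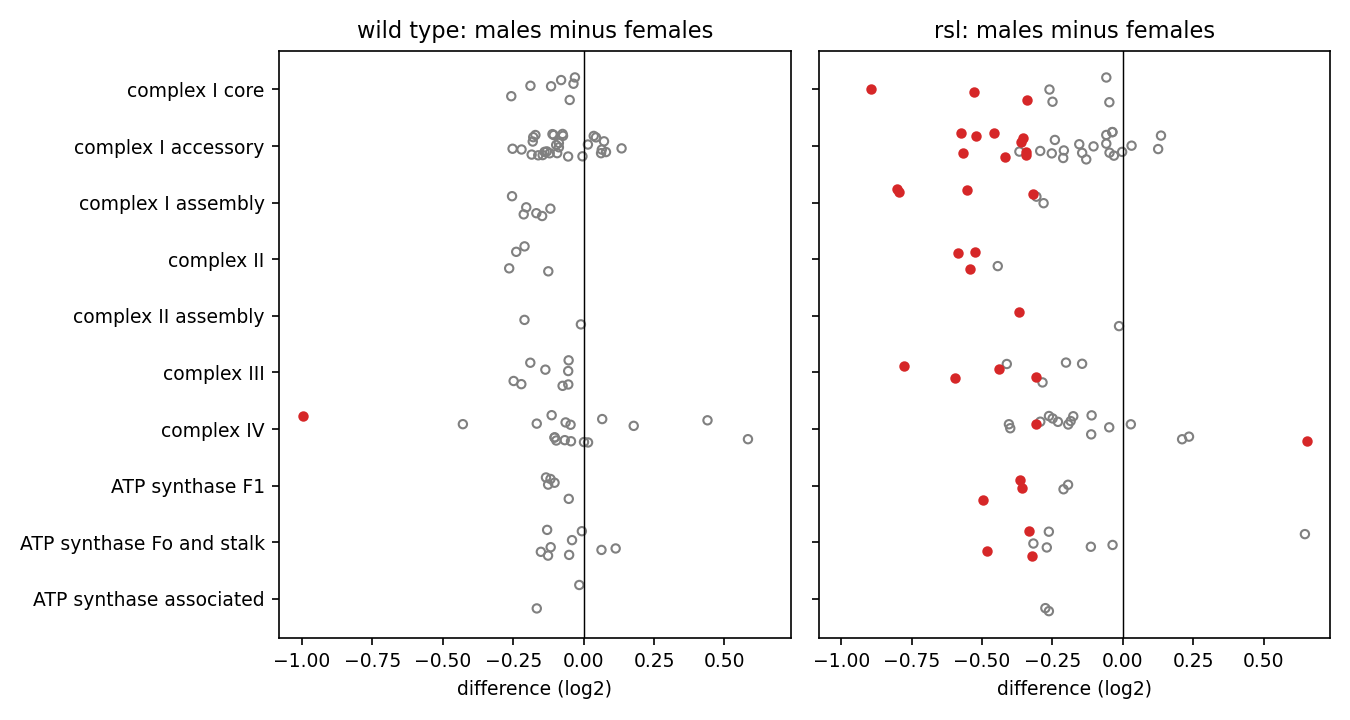
Difference between males and females (log2, males minus females) for each of the 89 members, by role, in wild type mice on the left and rsl mice on the right. Filled red points passed the limma test, 1 in wild type and 32 in rsl mice, and most points of both panels lie left of 0.

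Atp5g1 had a similar set of levels to Cox7a2l, with 10.43 and 9.90 in rsl males, 9.44 and 9.60 in rsl females, 9.77 and 9.31 in wild type males, and 9.36 and 9.49 in wild type females. Its pools of rsl males were the highest of all, but the difference of 0.65 ± 0.20 between rsl males and rsl females did not pass (limma adjusted p = 0.0881). Both genes were highest in rsl male pool 1, then in rsl male pool 2, then in wild type male pool 1. The epididymis marker means had that order too (12.04, 11.46 and 6.72), and the part of this tissue was not tested. The 3 genes for subunit c, Atp5g1, Atp5g2 and Atp5g3, encode the same mature protein behind different import sequences. Atp5g2 differed by -0.04 and Atp5g3 by -0.32 (limma adjusted p = 0.841 and 0.0537).

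The number of calls in the rsl strain rested on few arrays and on the scale. Without pool 1 of the rsl females no member passed, without pool 2 of the rsl females only Ndufaf4 did, without pool 1 of the rsl males 14 did, and without pool 2 of the rsl males 43 did. It was 13 without either pool of the wild type females, which enter only through the shared estimate of spread, and 1 (Ndufaf5) when the rsl arrays were fitted alone. When each array was centred on its adipocyte markers, every probe set shifted by 0.43 in this comparison, the members' median became 0.17, and the calls became 0 lower and 2 higher, Cox7a2l and Atp5g1. On the deposited scale 5 of the 19 adipocyte markers were lower in rsl males, 11 of the 11 epididymis markers were higher and 4 of the 14 muscle markers were lower. The 3' to 5' differences given above were also highest in the rsl males. The part of these tissues and of RNA integrity in the members' differences was not tested. Of the 31 members called lower, 18 had a second probe set, of which 17 had the same sign and 10 were called. Another 14 members were called lower only by another probe set, among them Uqcrb, whose second probe set differed by -0.63.

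Other mitochondrial genes were lower in the same comparison. Of 16 genes of the TCA cycle and pyruvate dehydrogenase, 11 were lower in rsl males, with a median of -0.55. Dlat and Pdhb, both of the pyruvate dehydrogenase complex, differed by -1.25 and -1.24. Of 75 proteins of the mitochondrial ribosome, 37 were lower and 1 was higher, with a median of -0.30; Mrps22 differed by -0.77 and Mrpl37 by 0.75. Of 14 assembly factors for complexes III and IV, 4 were lower, among them Cox19 at -0.92, and Cox15, which makes haem a, was higher by 0.76. Cyc1, the cytochrome c1 of complex III, was lower by 0.48 on the log2 scale. Of 12 regulators of mitochondrial genes, the transcription factors Tfb2m (-0.69) and Tfb1m (-0.43) and the polymerase Polrmt (-0.37) were lower.

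**Figure D3:**
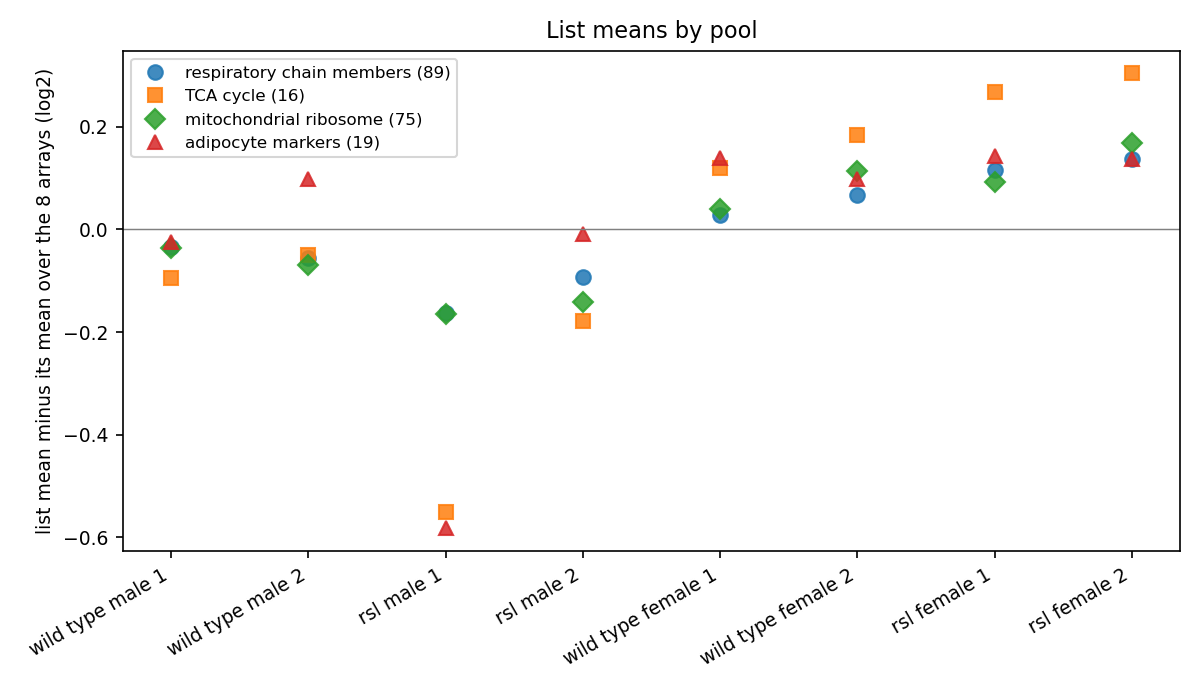
Mean level of the 89 chain members, 16 TCA cycle genes, 75 mitochondrial ribosome genes and 19 adipocyte markers in each pool, as the log2 signal minus the list's own mean over the 8 arrays. Every list was lowest in rsl male pool 1, and the chain members and ribosome genes covered a narrower range than the TCA cycle genes and adipocyte markers.

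In wild type mice, 1 of the 89 members differed between the sexes, against 3.83% of all probe sets called and 2.22% called lower in males. Cox6a2, the heart and skeletal muscle form of a complex IV subunit, had levels of 4.49 and 4.38 in wild type males, 5.49 and 5.37 in wild type females, 4.43 and 4.57 in rsl males, and 5.04 and 4.77 in rsl females. It was lower in wild type males than in wild type females by 0.998 ± 0.11 on the log2 scale (-0.998, limma adjusted p = 0.00735). The 4 male pools did not overlap with the 4 female pools. The mean of the skeletal muscle markers showed the same split, with pool 2 of the rsl females the lowest female pool, as for Cox6a2. Of the single markers, Actn3 and Casq1 overlapped between the sexes and the others did not. Actn3 had 4.62 in pool 2 of the rsl females against 5.07 and 5.53 in wild type males. Without either pool of the wild type females the call was lost. Without pool 1 of the wild type males Cox7b2 was called as well, and without either pool of the rsl males Cox6b2 and Cox8c were. The part of muscle in this result was not tested. The median difference of the 89 members was -0.10, against -0.01 over all probe sets, and both male pools lay below both female pools for 58 members (29.2% of all probe sets) and above for 5 (22.9%). At an unadjusted p below 0.05 limma gave 12 members (13.5%), against 17.4% of all probe sets.

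Of 9 brown adipocyte markers, which include Cox8b and Cox7a1, 5 were lower in wild type males than in wild type females and none higher, and 2 of the 9 differences were above 0. Ppargc1a, a coactivator of mitochondrial genes, had a difference of 0.997 in the other direction, with no overlap of the pools, and did not pass (limma adjusted p = 0.125). Cox8b, left out of the set by its rule, had levels of 7.16 and 6.59 in wild type males, 9.30 and 9.36 in wild type females, 6.42 and 7.05 in rsl males, and 9.27 and 9.30 in rsl females. Males were lower by -2.45 in wild type and -2.55 in rsl mice (limma adjusted p = 0.00403 and 0.00249). Cox7a1 was also lower in males of both strains, by -0.75 in each (limma adjusted p = 0.0395 and 0.0206). Ucp1, the uncoupling protein of brown fat, had levels of 3.56 and 3.77 in wild type males, 4.33 and 4.37 in wild type females, and between 3.55 and 3.95 in the 4 rsl pools, close to background. Of the wild type male pools, 1 was below the background of its array and the other just above it, so no size is given for the Ucp1 difference.

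The genotype comparisons called no member. Between rsl and wild type males limma called 0 of 89, against 1.32% of all probe sets. At an unadjusted p below 0.05 it gave 21 members (23.6%), close to the 20.6% of all probe sets at that threshold. The median difference was -0.07, against 0.00 over all probe sets, and both rsl pools lay below both wild type pools for 36 members (24.6% of all probe sets) and above for 10 (23.9%). The smallest adjusted p was that of Ndufs4, an accessory subunit of complex I needed for its activity, with 9.25 and 9.25 in wild type males, 8.92 in both pools of rsl males, 9.15 and 9.27 in wild type females, and 9.30 and 9.37 among rsl females. Its rsl male pools were below all 6 other pools, and the difference was -0.33 ± 0.07, with a 95% interval from -0.51 to -0.16 (limma adjusted p = 0.0798). The highest differences were those of Atp5g1 (0.63 ± 0.20, interval 0.14 to 1.11) and Cox7a2l (0.51 ± 0.15), and the lowest was that of Ndufaf1 (-0.46 ± 0.16). Outside the set, 1 of the 14 assembly factors for complexes III and IV was called, Cox15, which was higher in rsl males (0.95 ± 0.14, limma adjusted p = 0.0374). Without pool 2 of the rsl males, 13 members passed, and without pool 1 of the wild type males only Cox7b2 did, a gene near background. The centring on adipocyte markers shifted every probe set by 0.33 here and brought the members' median to 0.26. All 11 epididymis markers had differences above 0 in this comparison, with a median of 7.13, and 7 passed (limma). Of the 19 adipocyte markers, 18 had differences below 0, with a median of -0.31, and 0 passed. The mean levels of macrophage and hepatocyte markers were lower in the rsl than in the wild type male pools, as given above. The 3' to 5' differences were higher in the rsl male pools. The part of these tissues and cells and of RNA integrity here was not tested.

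Between rsl and wild type females limma also called 0 of 89, against 0.209% of all probe sets. At an unadjusted p below 0.05 it gave 6 members (6.74%), against 11% of all probe sets. The members' median was 0.09, against 0.01 over all probe sets, and 81 of 89 differences were above 0. Both rsl pools lay above both wild type pools for 60 members (27.3% of all probe sets) and below for 5 (23.9%). The smallest unadjusted p among core subunits of complex I was that of Ndufv1, the NADH-binding flavoprotein, with 10.98 and 10.99 in rsl females and 10.75 and 10.79 in wild type females (0.21 ± 0.07, limma adjusted p = 0.345). Ndufa10 had 11.07 and 11.07 against 10.82 and 10.87 (0.22 ± 0.07, limma adjusted p = 0.334). In both genes the rsl female pools were the highest of the 8. The members farthest below the median were Cox6a2 (-0.52 ± 0.11, limma adjusted p = 0.196) and Cox6b2 (-0.47 ± 0.11, limma adjusted p = 0.230), which were called when the female arrays were fitted alone. Cox6a2 is a muscle form, and all 14 skeletal muscle markers also had differences below 0 here. Their median was -1.26, with no overlap for 10 of them, and 0 passed in limma. The part of muscle in the Cox6a2 difference was not tested.

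Averaged over the sexes, 0 of 89 members passed in limma, against 1.19% of all probe sets. At an unadjusted p below 0.05 there were 9 members (10.1%), against 21.2% of all probe sets. The median was 0.00. Cox6b2, a testis-enriched form of a complex IV subunit, came closest, with 5.09 and 5.21 in wild type males and 5.49 and 5.67 in wild type females, against 4.84 and 4.59 in rsl males and 5.07 and 5.16 in rsl females. Within each sex both rsl pools lay below both wild type pools, and the average difference was -0.45 ± 0.08, with a 95% interval from -0.64 to -0.27 (limma adjusted p = 0.0524). It passed without pool 1 of the wild type males or without either pool of the rsl males, and without pool 2 of the rsl males Atp5g1 and Cox7a2l passed too. The level of Cox6b2 was low, within 2 log2 units of the background.

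**Figure D4:**
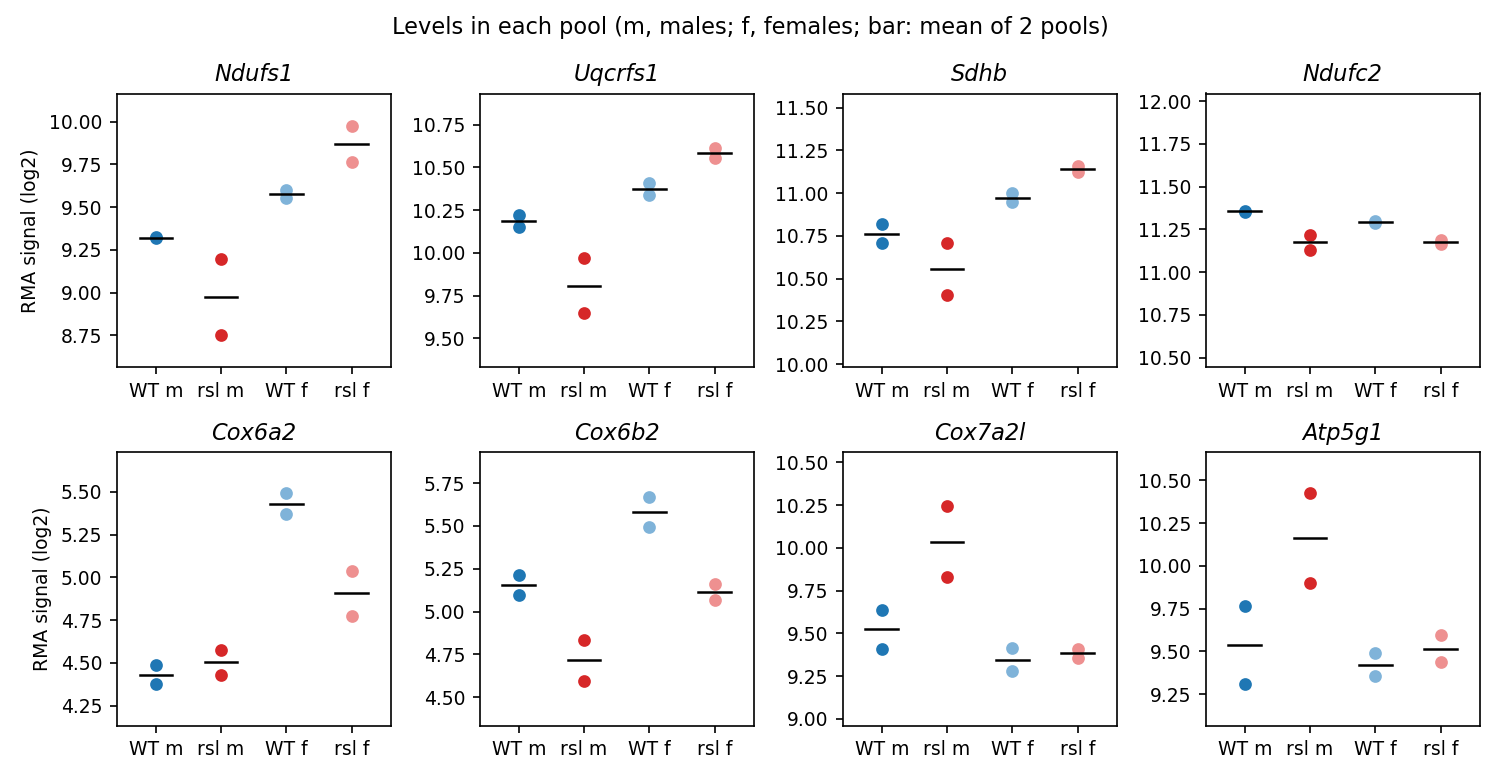
Log2 signal of 8 members in each pool (points) with the mean of the 2 pools (bars), for wild type (WT) and rsl males (m) and females (f). Each panel spans the same height on the log2 scale, so slopes can be compared. Ndufs1, Uqcrfs1 and Sdhb run from low in rsl males to high in rsl females. Cox7a2l and Atp5g1 are highest in the rsl male pools, and wild type male pool 1 comes next.

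On the deposited scale, the genotype difference had opposite signs in the sexes for most members. Centring on the adipocyte markers shifted every probe set by 0.33 in males and -0.02 in females. It brought the members' median in males above 0, and the signs were not counted again. On the deposited scale, the difference was above 0 in both sexes for 21, below 0 in both for 7, and below 0 in males and above 0 in females for 60. Without overlap, 3 members were lower in rsl mice of both sexes (Cox6b2, Ndufaf6 and Ndufc2, against 9.44% of all probe sets) and 5 were higher in both (Cox7c, Ndufa1, Ndufa2, Ndufb11 and Uqcrh, against 9.03%). A total of 24 members were lower in rsl males and higher in rsl females, against 4.71% of all probe sets, and none had the opposite pattern, against 2.98%. The interaction of genotype and sex, the test of that difference, called 0 of 89 members (limma, 0.0577% of all probe sets called), with a smallest adjusted p of 0.227 for Ndufs4. At an unadjusted p below 0.05 it gave 21 members (23.6%), against 10.8% of all probe sets. Without pool 2 of the rsl males it called 5, Ndufaf1, Ndufaf5, Ndufb3, Ndufs1 and Uqcrfs1.

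Ndufc2, an accessory subunit of complex I on chromosome 7 (chr7:97400003-97407800, GRCm38.p6), had levels of 11.36 and 11.35 in wild type males and 11.28 and 11.30 in wild type females, against 11.22 and 11.13 in rsl males and 11.18 and 11.17 in rsl females. All 4 rsl pools were below all 4 wild type pools, a pattern of 1 of the 89 members and 1753 of the 45037 probe sets. The average difference of Ndufc2 was -0.15 ± 0.05 (limma adjusted p = 0.158). Its second probe set had 10.66 in both pools of wild type males and 10.60 and 10.70 in wild type females, against 10.21 and 10.22 in rsl males and 10.48 and 10.47 in rsl females. That probe set was lower in rsl males by 0.45 on the log2 scale (-0.45 ± 0.07, limma adjusted p = 0.0429) and on average (-0.31 ± 0.05, limma adjusted p = 0.0422). The Rsl genes lie on chromosome 13, where 7 members lie: Cox7c, Ndufaf2, Ndufs4, Ndufs6, Sdha, Uqcrb and Uqcrfs1. Their median differences were -0.12 in males and 0.12 in females, and those of the 9 members on chromosome 7 were -0.11 and 0.07. Uqcrb, a subunit of complex III (chr13:66900576-66905350), had genotype differences of -0.12 in males and 0.03 in females, which did not pass (limma adjusted p = 0.393 and 0.918). Its second probe set had 10.59 and 10.62 in wild type males against 10.19 and 10.29 in rsl males, with no overlap. In females it had 10.81 and 10.78 in wild type against 10.87 and 10.86 in rsl mice. That probe set did not pass in either sex (limma).

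Several subunits have a general form and a tissue-specific paralog, whose levels are given for each form without a comparison between probe sets. Cox4i1 had levels from 12.14 to 12.29 and Cox4i2, a lung form, from 4.59 to 4.89. Cox6b1, the general form of Cox6b2, had 11.90 to 12.22, and Cox7a2 had 11.70 to 11.97. Cox8a had 10.88 to 11.25 and Cox8c, a testis form, 6.16 to 6.69. Cox8c had 6.62 and 6.67 in wild type males against 6.25 and 6.16 in wild type females, with no overlap. Its difference of 0.44 ± 0.09 did not pass (limma adjusted p = 0.0563). The second probe set of Cox8c differed less, with 5.80 and 5.74 in wild type males against 5.73 and 5.68 in wild type females. Cox7b2 had 3.69 and 4.16 in wild type males and between 3.28 and 3.57 elsewhere. Cox6b2, the testis-enriched form, went the other way, with a mean of 5.15 in wild type males and 5.58 in wild type females. The mean of 12 testis and sperm markers was 6.51 and 6.63 for wild type males, 6.17 and 4.79 for rsl males and 3.82 to 3.84 for the female pools, and its part in these values was not tested. Ndufa4, now counted with complex IV, had 11.10 to 11.53, and Ndufa4l2, its hypoxia-induced relative, had 5.34 to 5.65 with no call in any comparison.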

How the data were processed

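Total RNA of 8 pools of 5 mice was measured on Affymetrix mouse genome PM arrays; biotinylated cRNA was made from 400 ng, per the labels. The authors deposited a log2 signal for each probe set, summarised with RMA per the submitters' processing notes, version not given in the sources used here. A second deposited table of the authors gave the annotation text (the other unit) and held 8 value columns that match no label and were not used.

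Of 45141 probe sets, 104 controls were left out. Linear models with 1 mean per group were fitted to the other 45037 with limma 3.58.1 (R 4.3.3), with 4 residual and 3 prior degrees of freedom, no filter, and 2-sided p-values adjusted by Benjamini-Hochberg within each of 6 contrasts at 0.05. Errors are moderated standard errors, and intervals cover 95%. Background on an array was the highest of 22 non-specific controls of GC count 3 to 24; that of 25 was left out once its values had been seen. All 89 members matched RefSeq (GRCm38.p6) by accession, and 3 have newer symbols there (Atp5f1, Atp5s and Atp5sl). Of their probe sets, 18 are of a type that may match other transcripts and 54 genes had more than 1 probe set. Arrays give no read depth, and their number limits the precision.

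The members and gene lists were chosen with earlier results of these data known. Named members are the 8 largest calls each way per contrast, the brightest and lowest-p members per role, paralog pairs, the members on chromosomes 7 and 13, and the 5 farthest from the median; other lists give their largest calls. Deviations of same-numbered arrays from their group means correlated at 0.35 between the male strains, 0.11 between the female strains and -0.05 to 0.02 in the other pairs of groups. Not all were above 0.1 and the labels name no shared origin, so numbers were not taken as pairs. In simulated data of this design, 13% of probe sets changed by 0.5 and 62% of those changed by 1 (log2) were recovered for males, and 15% and 69% for females. The simulated noise was independent, with the same spread in every group and no shift of whole arrays. In the data, the median gap between pools over all probe sets was 0.129 in rsl males and 0.0783 in wild type females. The simulation therefore does not give the recovery for the rsl males. Alternatives were a fit of the groups compared, a replicate block, an intensity trend, only probe sets above the median level, quantile, median and adipocyte marker centring, gene means, second probe sets, array weights and each array left out.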

Additional observations from a re-analysis of the deposited data

Results flagged for a closer look

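On the deposited scale, a total of 24 members had both rsl pools below both wild type pools in males and above both in females. Centring on the adipocyte markers shifted every probe set by 0.33 in males and -0.02 in females. The pattern was not counted again after this centring. The interaction of genotype and sex, which tests that difference, passed for none of the 24 (limma), and for 0 of all 89 members. Over all probe sets, 4.71% had this pattern.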

How the results depend on the processing

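Counts of members called moved as follows. Fitted on the 2 groups compared, they became 2 between the female strains (Cox6a2, Cox6b2), 2 between wild type sexes (Cox6a2, Cox8c) and 1 between rsl sexes (Ndufaf5). The average genotype contrast gave 1 (Cox6b2) with only probe sets above the median level, median centring or array weights. Second probe sets gave 1 for rsl against wild type in males and on average (Ndufc2), 0 between wild type sexes and 21 of 54 between rsl sexes. Array weights gave 4 between wild type sexes (Cox6a2, Cox6b2, Cox7b2, Cox8c). Adipocyte marker centring gave 2 between rsl sexes, both higher, and turned the sign of Atp5a1 (0.0772), Atp5c1 (0.0701), Atp5j (0.10), Atp5k (0.11), Cox7c (0.12), Ndufa8 (0.0739), Ndufaf2 (0.12), Ndufb10 (0.0918), Ndufb2 (0.0803), Ndufb9 (0.0896), Ndufs3 (0.0934), Ndufs4 (0.0169), Sdhaf2 (0.0647) and Uqcrc2 (0.13); Cox7c also turned with its second probe set (0.12). Each array left out in turn gave 0 to 13 calls for males, 0 to 0 for females, 0 to 3 for the average, 0 to 3 between wild type sexes, 0 to 43 between rsl sexes and 0 to 5 for the interaction; a lone pool was taken to vary like the other groups. With the replicate block 32 members were called between rsl sexes, 31 of them as before. Other settings kept the counts within 1.5 times. The cause of these moves was not tested. The 2 pools a group and unknown sharing of mice limit every value.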
